A study of Mus musculus with 6 samples.

Results

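Nuclear-encoded subunits of the 5 respiratory chain complexes were described in regulatory T (Treg) cells sorted from tumours. Members were the rows of the deposited table whose gene symbol matched the names of these subunits in full: Nduf with a letter a, b, c, s or v and what follows, Sdha to Sdhd, Uqcr with what follows, Cox4 to Cox8 with a letter and what follows, and Atp5 with what follows. Assembly factors named Ndufaf and symbols containing -ps were left out. This gave 90 of 55450 genes, of which 41 were grouped by name under complex I, 4 under complex II, 8 under complex III, 19 under complex IV and 18 under complex V. The names also took in 4 processed pseudogenes (Ndufb4c, Ndufs6b, Ndufa11b and Cox6c2) and the relatives Atp5s and Cox7a2l, which are not usually counted as fixed subunits. Ndufa4 stayed under complex I by its name, although the protein is now assigned to complex IV.

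The data were 6 RNA-seq libraries of Treg cells, a CD4 T cell lineage that depends on the factor Foxp3 and curbs immunity, taken from MC38 tumours in C57BL/6 mice. MC38 is a transplantable mouse colon carcinoma. The labels call 3 libraries Tim-3 deficient and 3 Tim-3 sufficient, Tim-3 being an inhibitory receptor encoded by Havcr2, and they place the deficiency in Treg cells. The allele, the Cre driver, and the age and sex of the mice are not given in the sources used here. Nor do the labels tie each library to its own mouse, so p-values reflect only the scatter of these libraries, and that scatter may be technical. Libraries are named by the marks in the column names: deficient C1, D and dated, and sufficient A1, B1 and dated. "Dated" marks the 1 library of each group whose column name carries a calendar date, treated as a possible batch, and the other 4 are called undated. Within a group, values are listed in the order C1, D, dated or A1, B1, dated.

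Complexes I to IV pass electrons from NADH and succinate to oxygen and pump protons across the inner mitochondrial membrane at complexes I, III and IV. Complex V, the ATP synthase, uses the returning protons to make ATP. Complex II is made wholly by nuclear genes, whereas the other complexes join nuclear-encoded with mitochondrially encoded subunits. Treg cells are known to draw on mitochondrial respiration more than many activated conventional T cells do.

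Levels are TPM, a transcript abundance per length scaled to a total of 1000000 in each library, so that levels can be compared between genes and each level is a share of the total. Read depth is unknown, since TPM keeps no counts, and 11470 to 12681 genes reached 1 TPM in a library. On the log2(TPM + 1) scale, Havcr2 held 3.54, 4.27 and 2.55 in deficient libraries, against 5.70, 5.64 and 4.49 in sufficient libraries. Each deficient library was below each sufficient one, with a log2 difference of -1.83 ± 0.48 (SE, limma adjusted p = 0.211, or 0.0148 with the date mark as a block). Foxp3 lay at 5.43 to 5.56 in deficient and 4.82 to 5.52 in sufficient libraries, and the 9 Treg and T cell markers summed to 6199 to 8177 TPM in deficient and 8045 to 10093 TPM in sufficient libraries. The 9 macrophage and monocyte markers summed to 1256, 15.7 and 20.5 TPM in deficient and 126, 923 and 23.5 TPM in sufficient libraries, so deficient C1 and sufficient B1 stood apart from the rest. No macrophage marker was at 0 in all libraries, whereas the B cell marker Ms4a1 and the epithelial markers Krt8 and Krt19 were. The lists of dendritic, B, CD8 T and NK, tumour, fibroblast and red cells each summed to 88.6 TPM or less in every library. Proliferation markers summed to 588, 459.75 and 111 TPM in deficient and 281, 285 and 169 TPM in sufficient libraries. The 4 Y-linked genes examined summed to 0.01 TPM in deficient dated, against 139.5 TPM or more in each of the other 5 libraries. Between the dated libraries, Tim-3 status therefore cannot be told apart from this Y-linked difference. Both dated libraries enter the fits of all 6 libraries, with or without the date mark as a block. In these bulk samples, fewer cells of a type and less RNA per cell cannot be told apart.

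Transcripts of the 90 members made up 4.04%, 3.66% and 3.97% of all TPM in deficient libraries, and 3.62%, 3.96% and 4.28% in sufficient libraries. Their summed abundance was 38913 ± 2003 TPM in deficient and 39517 ± 3293 TPM in sufficient libraries (SD, n = 3 each), a ratio of 0.985. The groups overlapped, and the lowest and the highest sums both belonged to sufficient libraries. By complex, the ratio of deficient to sufficient means was 0.977 for complex I, 1.10 for complex II, 0.970 for complex III, 0.945 for complex IV and 1.03 for complex V, and the groups overlapped in each. Complex I held 14006 ± 853 TPM in deficient and 14338 ± 1468 TPM in sufficient libraries. Complex II was the least abundant, with 829.96 ± 80.9 TPM in deficient and 754 ± 32.3 TPM in sufficient libraries. Complex III held 4487 ± 268 TPM in deficient and 4626 ± 350.1 TPM in sufficient libraries. Complex IV held 9209 ± 579.7 TPM in deficient and 9741 ± 934 TPM in sufficient libraries, and complex V 10382 ± 781 TPM in deficient and 10058 ± 618 TPM in sufficient libraries. The SD of each group exceeded the difference between the means in every complex but II, where only the deficient SD did.

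**Figure D1:**
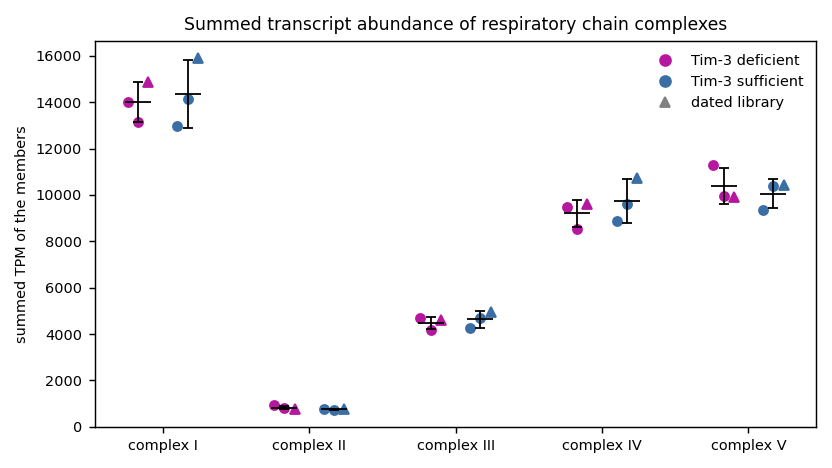
Summed TPM of the members of each complex, with a point for each library (triangles mark the dated ones) and black bars for mean and SD over the 3 libraries of a group. Deficient and sufficient libraries overlap in all 5 complexes, and complex II is lowest at 829.96 TPM in deficient and 754 TPM in sufficient libraries on average.

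No member passed the threshold of an adjusted p under 0.05. Of the 90 members, 81 reached 1 TPM in at least 3 of the 6 libraries and were tested in a fit of 12155 genes. In that fit limma called 0 of 81 members, against 0.206% of all genes (0.132% higher and 0.074% lower in deficient libraries), and the smallest adjusted p of a member was 0.211, for Cox7a1. At an unadjusted p under 0.05 there were 8 members, against 11.7% of all genes. Of these, 4 had positive differences, against 6.98% of all genes, and 4 had negative ones, against 4.69%. The groups did not overlap for 12 of 81 members (14.8%), against 17.6% of all genes. Deficient libraries were above sufficient ones at 3 of them (Uqcrc1, Ndufa12 and Sdhd), against 10.9% of all genes. They were below at 9 (Cox7a1, Cox7b, Ndufa13, Atp5e, Cox6c2, Ndufb7, Atp5k, Cox7a2l and Uqcr10), against 6.73% of all genes. Among genes of a mean log2 of at least 7, which held 69 of the tested members, the groups did not overlap at 24.5% of genes and at 10 of the 69 members (14.5%).

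Most fitted differences were small, and their intervals reflect only the scatter of these libraries. Positive log2 differences were seen at 39 tested members and negative ones at 42, with a median of -0.0032. Of all 12155 tested genes, 7309 had positive differences, with a median of 0.09, which median centring moves to -0.04. The 95% interval of the difference lay within a 2-fold change in either direction for 76 of 81 members and within a 1.5-fold change for 58. The same held for 6467 and 1399 of the 12155 genes, whose median level was lower. Among the 1165 genes of a mean log2 of at least 7 it held for 1000 and 536, and among the 69 members at that level for 68 and 55. The 5 members whose interval reached beyond 2-fold were Cox7a1, Cox6c2 and Cox6b2, which were scarce, and Sdhc and Atp5b, whose libraries differed widely. With the date mark as a block, limma called 0 members and 1.97% of all genes, and the smallest adjusted p of a member was 0.0767, again for Cox7a1.

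**Figure D2:**
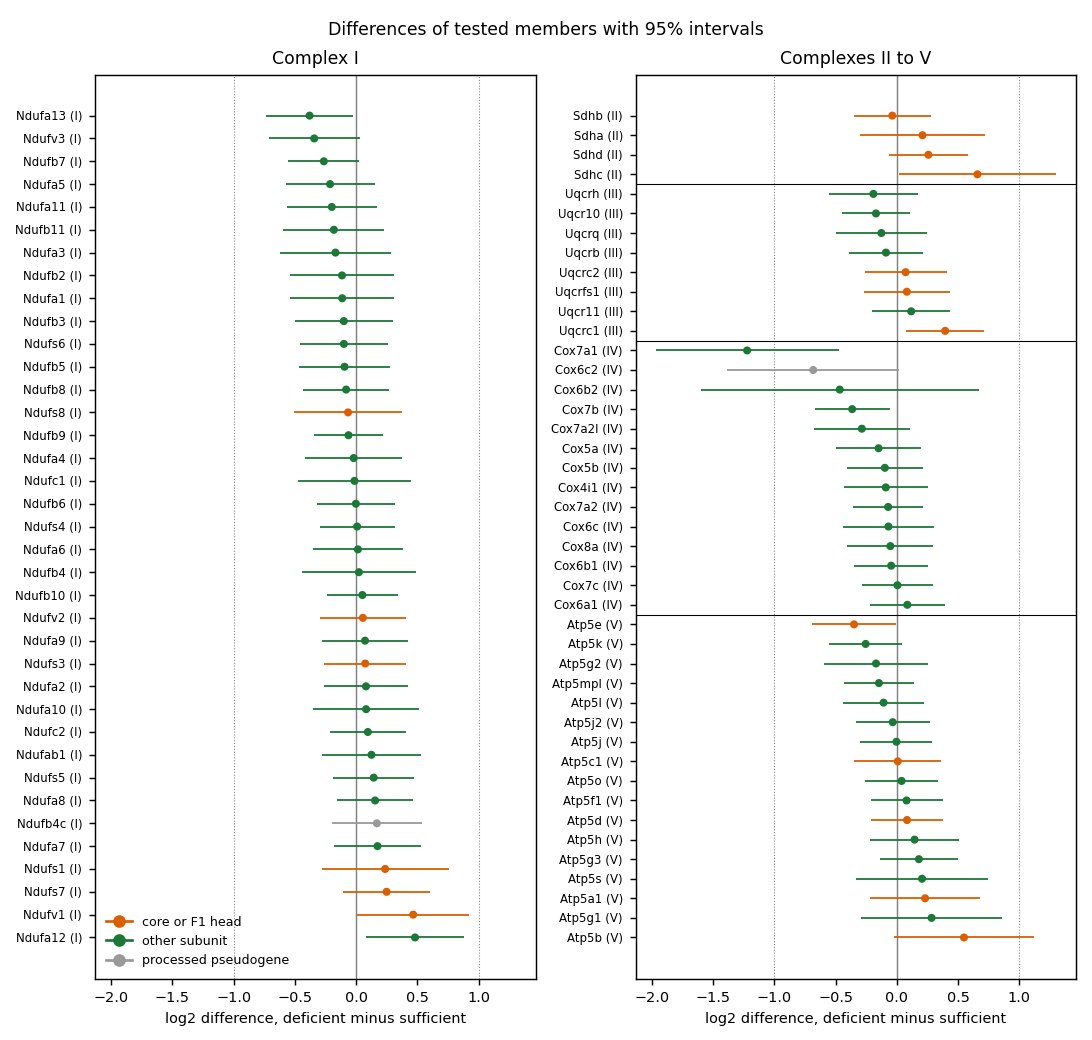
Log2 difference, deficient minus sufficient, of 80 of the 81 tested members with its 95% interval from limma, by complex, coloured by role, with dotted lines at a 2-fold change. Cox7a1 lies farthest from 0 at -1.22, and Sdhc has the highest value at 0.66; no member passed the threshold.

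Complex I, the NADH dehydrogenase, had 38 tested members, with differences from -0.38 to 0.48 and a median of 0.01, which was -0.04 with quantile normalization and -0.12 with median centring. Ndufa12, an accessory subunit of the peripheral arm, had 481, 360.3 and 315 TPM in deficient libraries, against 267, 283 and 265 TPM in sufficient libraries (ENSMUSG00000020022.17, GRCm38 chr10:94198720-94221443, plus strand). The groups did not overlap, and deficient C1 was highest. Its log2 difference was 0.48 ± 0.17 (SE, 95% interval 0.08 to 0.88, adjusted p = 0.339), and it was 0.60 between undated libraries and 0.25 between dated ones. Ndufv1, the flavin-binding subunit where NADH gives up its electrons, had 131, 114 and 90.5 TPM in deficient libraries, against 85.1, 90.6 and 65.7 TPM in sufficient libraries (GRCm38 chr19:4007384-4012806, minus strand). Here deficient dated and sufficient B1 met at nearly the same level, and the difference was 0.47 ± 0.20 (adjusted p = 0.419). Ndufa13, an accessory subunit also known as the cell death regulator GRIM-19, had 276, 281 and 348 TPM in deficient libraries, against 368, 365 and 444 TPM in sufficient libraries (GRCm38 chr8:69894180-69902558, minus strand). Each deficient library was below each sufficient one, by a difference of -0.38 ± 0.15 (adjusted p = 0.394), with -0.40 between undated libraries and -0.35 between dated ones.

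Other core subunits of complex I, which carry the flavin and iron-sulfur clusters or bind ubiquinone, had differences on both sides of 0 with overlapping groups. Ndufs1, the large iron-sulfur subunit and the scarcest tested member of the complex, had 60.1, 62.6 and 41.3 TPM in deficient libraries, against 56.1, 39.7 and 42.2 TPM in sufficient libraries. Deficient C1 and D were the highest libraries for Ndufs1, while deficient dated lay within the sufficient range. Ndufs7 and Ndufs8, iron-sulfur subunits on the path to ubiquinone, had differences of 0.25 ± 0.15 and -0.066 ± 0.19, and Ndufs3 and Ndufv2 had 0.074 ± 0.15 and 0.055 ± 0.15. The difference of Ndufs8 was 0.15 between undated libraries and -0.51 between dated ones. The accessory subunit Ndufs4, whose loss gives mice a Leigh-like brain disease, had 284, 275 and 320.5 TPM in deficient libraries, against 273, 289.9 and 312 TPM in sufficient libraries, and its difference of 0.0079 had an interval of -0.30 to 0.31.

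The most abundant member of complex I was Ndufa1, a small subunit anchored in the membrane, with 931, 1100.0 and 1455 TPM in deficient libraries, against 1111, 1261 and 1347 TPM in sufficient libraries. Its 6 values interleaved, with the lowest and the highest both in the deficient group, and its difference was -0.11 ± 0.18 (adjusted p = 0.849). Ndufa4 had 569.7, 561 and 721 TPM in deficient libraries, against 521, 633 and 728 TPM in sufficient libraries, with a difference of -0.020 ± 0.17. Ndufb7, an accessory subunit on the outer face of the membrane arm, had 465, 523 and 554 TPM in deficient and 603, 625 and 618 TPM in sufficient libraries, with no overlap and a difference of -0.26 ± 0.13 (adjusted p = 0.46). Ndufv3, an accessory subunit beside the flavin site, had 447, 505 and 628 TPM in deficient and 598, 679 and 711 TPM in sufficient libraries, where deficient dated lay above sufficient A1, and a difference of -0.34 ± 0.16 (adjusted p = 0.457). Ndufab1, the mitochondrial acyl carrier protein, had 456, 337 and 354 TPM in deficient libraries, against 305, 335 and 410.1 TPM in sufficient libraries. Its groups overlapped, with a difference of 0.13 ± 0.18. The pseudogene Ndufb4c was listed at 195 to 279 TPM and its parent gene Ndufb4 at 50.8 to 79.1 TPM, and reads of such near-identical copies can be divided between them, so both values are uncertain. Ndufs1, Ndufs4, Ndufb4, Ndufb4c, Ndufv3, Ndufs3, Ndufs7, Ndufs8, Ndufv2, Ndufab1 and Ndufb7 were named after their values were seen.

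Complex II, the succinate dehydrogenase, joins the citric acid cycle to the respiratory chain, and all 4 members were tested. Sdhc, a membrane anchor that helps bind haem and ubiquinone, had 125, 99.5 and 57.9 TPM in deficient libraries, against 63.0, 58.4 and 49.1 TPM in sufficient libraries (ENSMUSG00000058076.12, GRCm38 chr1:171127165-171150603, minus strand). Deficient C1 and D stood well above the rest, while deficient dated lay within the sufficient range. The difference was 0.66 ± 0.28 (SE, 95% interval 0.01 to 1.30, adjusted p = 0.416), and it was 0.87 between undated libraries and 0.23 between dated ones. Sdhd, the other anchor, had 263, 209.6 and 221 TPM in deficient libraries, against 191, 195 and 191 TPM in sufficient libraries, with no overlap and a difference of 0.26 ± 0.14 (adjusted p = 0.516). Sdha, the flavoprotein that oxidises succinate, had 102, 95.01 and 68.2 TPM in deficient and 93.1, 74.9 and 60.8 TPM in sufficient libraries. Its groups overlapped, dated libraries were lowest in both groups, and the difference was 0.21 ± 0.22. Sdhb, the iron-sulfur subunit, had 433, 392 and 424 TPM in deficient and 411, 392 and 483 TPM in sufficient libraries, with a difference of -0.038 ± 0.14. The median of the 4 differences was 0.23, and it was positive under each scaling run, from 0.10 with median centring to 0.23.

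Complex III, the cytochrome bc1 complex, had 8 tested members with a median difference of -0.01, 4 positive and 4 negative. The median was negative under each scaling run, down to -0.14 with median centring, and 0.05 at most when 1 library was left out. Uqcrc1, a core protein that faces the matrix, had 375, 338 and 299.6 TPM in deficient libraries, against 265, 262 and 241 TPM in sufficient libraries (ENSMUSG00000025651.14, GRCm38 chr9:108936633-108949623, plus strand). Each deficient library was above each sufficient one, and the difference was 0.39 ± 0.14 (SE, 95% interval 0.07 to 0.71, adjusted p = 0.327), with 0.44 between undated libraries and 0.31 between dated ones. Uqcrc2, the partner of Uqcrc1 in the same complex, had 116, 101 and 107 TPM in deficient and 103, 94.2 and 111 TPM in sufficient libraries, with overlapping groups and a difference of 0.071 ± 0.14. Uqcrfs1, the Rieske iron-sulfur protein that hands electrons towards cytochrome c1, had 159.7, 154 and 167 TPM in deficient libraries, against 132, 149.6 and 176 TPM in sufficient libraries, also with overlap and a difference of 0.082 ± 0.15. The small accessory subunits Uqcr10 and Uqcrh were more abundant. Uqcr10 had 689, 628 and 661 TPM in deficient libraries, against 708, 729 and 792 TPM in sufficient libraries, where deficient libraries lay below sufficient ones by a difference of -0.17 ± 0.12 (adjusted p = 0.609). Uqcrh, the hinge protein beside cytochrome c1, had 727, 813 and 987 TPM in deficient libraries, against 861, 946 and 1067 TPM in sufficient libraries, with a difference of -0.19 ± 0.16 (adjusted p = 0.67). Uqcrb, Uqcrq and Uqcr11 had differences of -0.089, -0.13 and 0.12, each with overlapping groups. Uqcrc2, Uqcrfs1, Uqcrb, Uqcrq and Uqcr11 were named after their values were seen.

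Complex IV, the cytochrome c oxidase, had 14 tested members, of which 12 had negative and 2 had positive differences, with a median of -0.09. Its catalytic core is mitochondrially encoded, and the nuclear subunits surround it. The median was negative under each scaling run, from -0.23 with median centring to -0.01 with quantile normalization. Between undated libraries it was -0.05, and between dated ones -0.18. Deficient D held the lowest value of 9 of these 14 genes and sufficient dated the highest of 10. The most abundant member of the whole chain was Cox8a, a small membrane subunit, with 1542, 1327 and 1521 TPM in deficient libraries, against 1365, 1411 and 1806 TPM in sufficient libraries. Its groups overlapped and its difference was -0.053 ± 0.15 (adjusted p = 0.924).

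Cox7b, a small subunit needed for complex IV activity in humans, had 454, 391 and 403 TPM in deficient libraries, against 539, 578 and 491 TPM in sufficient libraries (ENSMUSG00000031231.4, GRCm38 chrX:106015700-106022450, plus strand). Every deficient library was below every sufficient one, and the difference was -0.36 ± 0.13 (SE, 95% interval -0.67 to -0.06, adjusted p = 0.34), with -0.41 between undated libraries and -0.28 between dated ones. Cox7a2l, which is not usually counted as a fixed subunit, had 137, 167 and 161 TPM in deficient and 168, 174 and 229 TPM in sufficient libraries. Its groups did not overlap, although deficient D and sufficient A1 were close, and the difference was -0.29 ± 0.17 (adjusted p = 0.545). Cox5a and Cox5b, subunits on the matrix side, had differences of -0.15 ± 0.15 and -0.098 ± 0.14 with overlapping groups, and were named after their values were seen. Cox6c2, a processed pseudogene of the abundant Cox6c, was listed at 3.36, 2.08 and 2.95 TPM in deficient and 3.91, 4.69 and 6.85 TPM in sufficient libraries, and reads from Cox6c may enter this value.

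Several complex IV subunits have isoforms for particular tissues, and Treg cells held almost wholly the widely expressed form of each. Cox7a1, the heart and skeletal muscle form of subunit VIIa, had 2.30, 4.84 and 5.13 TPM in deficient libraries, against 8.52, 10.7 and 12.4 TPM in sufficient libraries (ENSMUSG00000074218.3, GRCm38 chr7:30184144-30186078, plus strand). All deficient libraries lay below all sufficient ones, with deficient C1 lowest, and on the log2(TPM + 1) scale the means were 2.29 ± 0.50 in deficient and 3.52 ± 0.25 in sufficient libraries (SD, n = 3 each). The difference was -1.22 ± 0.32 (SE, 95% interval -1.97 to -0.48, adjusted p = 0.211), and it was -1.27 between undated libraries and -1.13 between dated ones. It had the smallest p of the members and did not pass over all genes, with or without the date block. Its partner Cox7a2 had 693, 664 and 713 TPM in deficient libraries, against 659.7, 756 and 764 TPM in sufficient libraries, with a difference of -0.071 ± 0.13. Cox7a1 was thus 0.331%, 0.724% and 0.714% of the TPM of the pair in deficient libraries, against 1.28%, 1.40% and 1.60% in sufficient libraries. Its share averaged 0.590% ± 0.224 in deficient and 1.43% ± 0.165 in sufficient libraries (SD, n = 3 each).

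Cox6a2, the muscle form of subunit VIa, did not reach the filter and was uneven between libraries, at 20.96, 0.25 and 0.11 TPM in deficient and 0, 6.15 and 0.41 TPM in sufficient libraries. Deficient C1 and sufficient B1, where it was highest, were also the libraries highest in macrophage markers, and the part of those cells in this value was not tested. Its partner Cox6a1 had 875, 832 and 757 TPM in deficient libraries, against 748, 856 and 720.4 TPM in sufficient libraries, all within a narrow range. Cox6b2, the testis form of subunit VIb, had 0.79, 0 and 3.12 TPM in deficient and 1.63, 1.65 and 1.79 TPM in sufficient libraries, and deficient libraries spanned the whole range. Cox6b1, its widely expressed partner, had 1056, 1003 and 1167 TPM in deficient libraries, against 1023, 1105 and 1204 TPM in sufficient libraries, with a difference of -0.047 ± 0.13. Cox4i1, the usual form of the subunit IV that binds ATP, had 1221, 1136 and 1328 TPM in deficient libraries, against 1179.8, 1223 and 1542 TPM in sufficient libraries, with overlap. Cox4i2, the form raised by low oxygen in lung and other tissues, reached at most 0.68 TPM, in sufficient B1. The muscle and testis forms Cox8b, Cox8c and Cox7b2 were listed at 0 in all 6 libraries. Ndufa4l2, a paralog of Ndufa4 known as a target of hypoxia-inducible factor, was listed at 0, 0.16 and 0.24 TPM in deficient libraries and at 0 in all 3 sufficient libraries. The remaining members below the filter were the pseudogenes Ndufs6b and Ndufa11b, at 1.15 TPM or less in every library, and an Atp5o row under a second identifier, ENSMUSG00000116933.1, at 0.20 TPM or less.

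**Figure D3:**
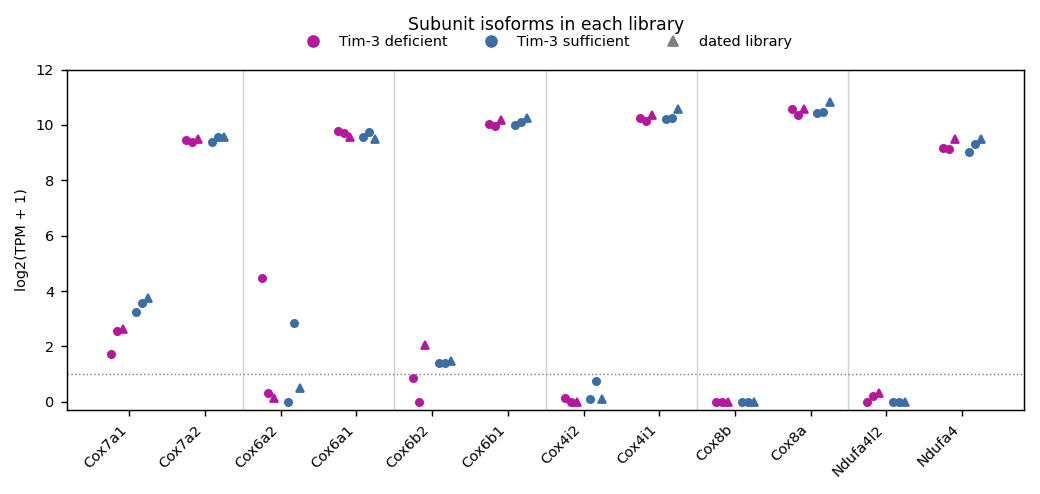
Deposited log2(TPM + 1) of 6 tissue-specific or low-oxygen isoforms, each left of its widely expressed partner, 1 point per library, with triangles for dated libraries and a dotted line at the filter of 1. Cox7a1 lies lower in deficient (mean 2.29) than in sufficient libraries (mean 3.52), Cox6a2 is above the line in deficient C1 and sufficient B1, and Cox8b is at 0 in all libraries.

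The promoters of 3 isoform pairs are shown because the partners of each pair stood far apart in level in all 6 libraries. They come from RefSeq on GRCm38.p6 and run from 160 to 11 bases before the annotated start, 5′ to 3′ on the gene's strand. In GENCODE, whose gene starts differ somewhat, the stretches of Cox7a1, Cox7a2, Cox6b2 and Cox6b1 hold 17, 15, 29 and 27 exonic bases, and those of Cox8b and Cox8a hold 0. Capitals mark CpG dinucleotides.
Cox7a1, chr7:30184011-30184160, plus strand: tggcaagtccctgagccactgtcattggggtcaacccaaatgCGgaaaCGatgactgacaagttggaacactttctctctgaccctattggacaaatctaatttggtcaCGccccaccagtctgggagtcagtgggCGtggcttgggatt
Cox7a2, chr9:79759864-79760013, minus strand: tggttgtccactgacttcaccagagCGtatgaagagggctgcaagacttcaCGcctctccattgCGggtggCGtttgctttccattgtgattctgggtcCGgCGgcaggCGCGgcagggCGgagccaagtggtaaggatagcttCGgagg
Cox6b2, chr7:4753105-4753254, minus strand: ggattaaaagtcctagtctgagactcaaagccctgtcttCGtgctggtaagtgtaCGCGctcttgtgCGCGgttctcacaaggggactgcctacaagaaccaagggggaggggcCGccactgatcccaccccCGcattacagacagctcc
Cox6b1, chr7:30626125-30626274, minus strand: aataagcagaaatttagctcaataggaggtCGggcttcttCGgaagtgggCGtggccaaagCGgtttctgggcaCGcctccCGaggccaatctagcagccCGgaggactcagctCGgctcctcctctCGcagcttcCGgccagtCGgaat
Cox8b, chr7:140900457-140900606, minus strand: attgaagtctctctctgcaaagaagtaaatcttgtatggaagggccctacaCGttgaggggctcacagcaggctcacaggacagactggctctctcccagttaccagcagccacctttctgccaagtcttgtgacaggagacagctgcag
Cox8a, chr19:7217627-7217776, minus strand: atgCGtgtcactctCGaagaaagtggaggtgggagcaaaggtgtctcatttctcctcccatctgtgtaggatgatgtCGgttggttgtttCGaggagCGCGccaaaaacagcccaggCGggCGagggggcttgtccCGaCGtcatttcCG
The printed stretch held 4 CpG for the scarce Cox7a1 and 10 for the abundant Cox7a2, 7 for Cox6b2 and 11 for Cox6b1, and 1 for Cox8b and 11 for Cox8a. Over the whole 300-base window, from 250 bases before the start to 50 after it, the 65 tested members with an entry (70 windows) had a median of 19 CpG, against 7 over all 32817 windows. The letters CCGGAA, the core bound by ETS family factors such as the mitochondrial gene regulator GABP, occurred on either strand at 38.5% of these 65 members and at 16.6% of all 26994 genes. The YY1 letters AAGATGGCG occurred on either strand at 10.8% of these members and 1.63% of all genes. Both sets of letters hold a CpG, and the windows of the members were richer in CpG than all windows. The shares over all genes take in genes not tested here, and no share was taken over genes of like level or CpG content. A match is a description of the letters and not of a bound site.

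Complex V, the ATP synthase, had 17 tested members, 10 with positive and 7 with negative differences and a median of 0.04, which was -0.10 with median centring. Atp5b, the catalytic beta subunit of the F1 head, had 1712, 1296 and 904 TPM in deficient libraries, against 934, 994 and 691 TPM in sufficient libraries (ENSMUSG00000025393.12, GRCm38 chr10:128083273-128090391, plus strand). Deficient C1 was highest and sufficient dated lowest, but deficient dated lay below sufficient A1 and B1, so the groups overlapped. The difference was 0.55 ± 0.25 (SE, 95% interval -0.02 to 1.12, adjusted p = 0.445), with 0.63 between undated libraries and 0.39 between dated ones. Atp5a1, the alpha subunit that alternates with beta in the head, had 328, 296 and 214 TPM in deficient and 246, 261 and 200.1 TPM in sufficient libraries, in a like order of libraries, and a difference of 0.23 ± 0.20. Atp5e, the small epsilon subunit of the central stalk, had 742, 718 and 821 TPM in deficient libraries, against 833, 978 and 1113 TPM in sufficient libraries (GRCm38 chr2:174461072-174464105, minus strand). All deficient libraries were below all sufficient ones, and the difference was -0.35 ± 0.15 (95% interval -0.69 to -0.01, adjusted p = 0.416), with -0.31 between undated libraries and -0.44 between dated ones. The stalk subunits Atp5c1 and Atp5d had differences of 0.0075 ± 0.15 and 0.083 ± 0.13, each with overlap. Within the head and stalk of 1 enzyme, Atp5b and Atp5e thus had values of opposite sign, and neither passed.

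Atp5g1, Atp5g2 and Atp5g3 encode the same mature subunit of the membrane ring with different targeting peptides, and their reads may in part be shared. Atp5g1 had 775, 478 and 380.3 TPM in deficient libraries, against 417, 472 and 396 TPM in sufficient libraries, where deficient C1 alone stood above the rest. Atp5g2 had 292, 198 and 201 TPM in deficient and 246, 240.03 and 281 TPM in sufficient libraries, and Atp5g3 had 729.9, 742 and 618 TPM in deficient and 589, 679 and 576 TPM in sufficient libraries. Atp5g1 gave 43.1%, 33.7% and 31.7% of the trio's TPM in deficient libraries, against 33.3%, 34.0% and 31.6% in sufficient libraries, and deficient C1 alone departed from a share near 33%. Atp5k, the membrane subunit e found where synthase dimers meet, had 357, 362 and 356 TPM in deficient libraries, against 389.7, 422 and 475 TPM in sufficient libraries. Its groups did not overlap, and the difference was -0.25 ± 0.13 (adjusted p = 0.488). The scarcest tested member of complex V was Atp5s, with 15.4 to 19.7 TPM in deficient and 12.4 to 18.7 TPM in sufficient libraries and a difference of 0.21. Atp5a1, Atp5c1, Atp5d and Atp5s were named after their values were seen.

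The highest values of the members fell mostly in 1 library of each group. Of the 81 tested members, 29 were highest in deficient C1, 3 in deficient D and 8 in deficient dated, against 0 in sufficient A1, 5 in sufficient B1 and 36 in sufficient dated. The lowest value fell in deficient C1, D and dated for 12, 21 and 5 members, and in sufficient A1, B1 and dated for 27, 6 and 10. The median deviation from a member's own mean was 0.04, -0.08 and 0.01 in deficient and -0.11, 0.0035 and 0.14 in sufficient libraries, in log2 units.

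**Figure D4:**
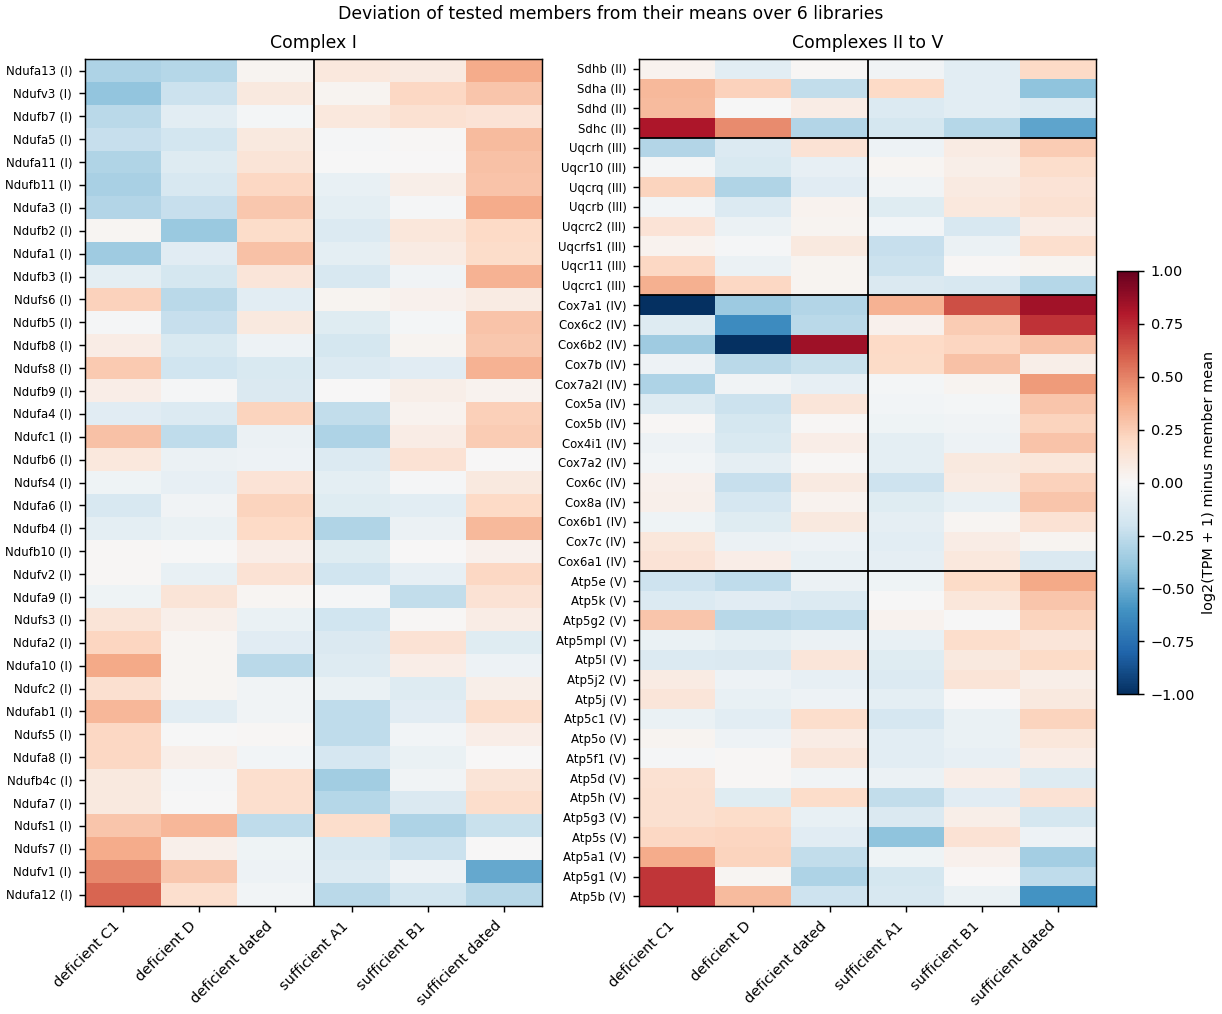
Deviation of 80 of the 81 tested members from their means over the 6 libraries on the log2(TPM + 1) scale, with deficient libraries left of the line and sufficient ones right of it, ordered within each complex by the difference (values beyond 1 take the end colour). Over all 81 members, deficient C1 holds the highest value of 29, sufficient dated of 36 and sufficient A1 of 0.

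Grouping the members by role, after their values were seen, set core and F1 head subunits against the other subunits. The first group is wider than the catalytic subunits. It takes in Uqcrc1, Uqcrc2, the anchors Sdhc and Sdhd, and the stalk subunits Atp5c1, Atp5d and Atp5e. The core subunits of complexes I to III and the F1 head subunits of complex V had positive differences at 16 of 19, with a median of 0.08, while the other subunits did at 22 of 60, with a median of -0.07. Exceptions with negative values among the first group were Atp5e, Ndufs8 and Sdhb. In complex I the counts were 6 of 7 core and 13 of 30 other subunits, in complex III 3 of 3 and 1 of 5, and in complex V 4 of 5 and 6 of 12. The 4 members of complex II were all core subunits. The 13 tested members of complex IV that are not pseudogenes were all among the other subunits. Role and complex were thus partly mixed in this grouping. The sign of the core and head median depended on the scale and the date mark, and that of the other subunits on single libraries. The medians were 0.23 for core and head and -0.02 for other subunits between undated libraries. They were -0.05 and -0.12 between dated ones, and -0.05 and -0.20 with median centring. Leaving out 1 library gave core and head medians from 0.077 to 0.285. The other subunits had positive differences at 32 of 60 without deficient D (median 0.013) and at 32 of 60 without sufficient dated (median 0.023). Core and head subunits had median deviations of 0.27, 0.05 and -0.05 in deficient and -0.14, -0.09 and -0.06 in sufficient libraries, and 12 of the 19 were highest in deficient C1. Deficient C1 also had the highest sums of the macrophage and proliferation marker lists, although not every marker was highest there. Apoe was highest in sufficient B1, Mki67 in sufficient A1 and Ccnb1 in deficient D, and the remaining markers of both lists in deficient C1. The part of either list in the members' values was not tested. Members of 1 complex are not replicates of a condition, and no test was made of this grouping.

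Role and transcript length went together in these genes. The longest principal transcript of GENCODE release 21 had a median length of 1653 bases for core and head subunits and 714 bases for other subunits. The difference was positive for 19 of 22 tested members of 1400 bases or more (median 0.08), 10 of 27 between 700 and 1400 bases (median -0.04) and 10 of 32 under 700 bases (median -0.09). Spearman's rho between length and difference was 0.47 over the 79 tested members that are not pseudogenes, 0.51 for the undated and 0.18 for the dated difference. Over the 1096 other tested genes of a mean log2 of at least 7 it was 0.21, with 0.10 for the undated and 0.33 for the dated difference, and it was -0.02 over all 12155 tested genes. These genes share the same 6 libraries, so the values are a description. The members' rho was 0.24 with quantile normalization, 0.32 without deficient C1 and 0.30 without deficient C1 and sufficient B1. Within the core and head subunits alone rho was 0.48, and within the other subunits 0.22, which was -0.0078 with quantile normalization and 0.06 without deficient C1.

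**Figure D5:**
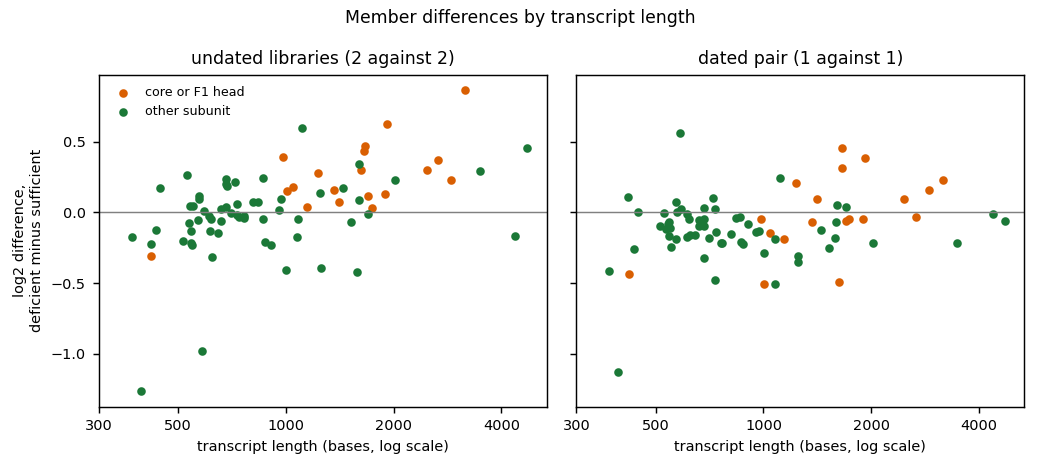
Log2 difference, deficient minus sufficient, of the 79 tested members that are not pseudogenes against transcript length in bases (log scale), for undated (left) and dated libraries (right), with core or F1 head subunits in orange. Spearman's rho is 0.51 on the left and 0.18 on the right.

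Other genes of the pathway also gave no call in the fit over all genes. At an unadjusted p under 0.05 in limma there were 4 of 13 mitochondrially encoded subunits, 3 of 20 citric acid cycle and pyruvate dehydrogenase genes, 3 of 24 carriers and outside subunits, 7 of 49 assembly factors, 0 of 16 biogenesis regulators and 0 of 7 genes tied to low oxygen, against 11.7% of all genes. Mitochondrially encoded subunits, the partners of the members in complexes I, III, IV and V, had negative differences at 11 of 13, with a median of -0.15, which was -0.31 with quantile normalization and -0.28 with median centring. Leaving out 1 library gave medians from -0.48 without sufficient B1 to 0.033 without sufficient dated, where 7 of 13 differences were positive. Their sum was 27259 ± 5013 TPM in deficient and 29780 ± 7274 TPM in sufficient libraries (SD, n = 3 each), with overlap. The complex I gene mt-Nd3 had log2(TPM + 1) levels of 8.00, 7.56 and 8.03 in deficient libraries, against 8.58, 8.72 and 8.81 in sufficient libraries. Its groups did not overlap, and the difference was -0.84 ± 0.17 (adjusted p = 0.113). The complex I gene mt-Nd5 had a difference of -0.55 ± 0.17 (adjusted p = 0.272). With the date mark as a block mt-Nd3, mt-Nd4 and mt-Nd6 were lower in deficient libraries, with adjusted p of 0.0353, 0.0411 and 0.0234, where the block called 1.97% of all genes. The other 4 mitochondrial genes of complex I did not pass with the block, with adjusted p of 0.582 for mt-Nd1, 0.273 for mt-Nd2, 0.973 for mt-Nd4l and 0.0805 for mt-Nd5. Apart from mt-Nd3 and mt-Nd5, these genes were named after their values were seen. The labels do not say that strand was kept, so reads of mt-Nd6 cannot be separated from those of genes on the opposite strand.

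Genes that feed the chain had mostly positive differences, none past the threshold in the fit without the block. Citric acid cycle and pyruvate dehydrogenase genes had positive differences at 18 of 20, with a median of 0.27, against 7309 of 12155 and 0.09 over all tested genes. That median was 0.16 with quantile normalization and 0.14 with median centring, and 0.21 to 0.44 when 1 library was left out. Idh3a, the catalytic subunit of the NAD-dependent isocitrate dehydrogenase, had log2(TPM + 1) levels of 6.77, 6.71 and 6.65 in deficient libraries, against 5.81, 5.79 and 6.12 in sufficient libraries. The groups did not overlap, and the difference was 0.80 ± 0.16 (adjusted p = 0.113, or 0.0378 with the date block). Idh2, the NADP-dependent mitochondrial enzyme, had 0.998 ± 0.36 (adjusted p = 0.336). The list of carriers, coenzyme Q enzymes and subunits outside the naming rule had positive differences at 19 of 24, with a median of 0.33, which was 0.47 between undated libraries and 0.00085 between dated ones, 0.18 without deficient C1 and 0.54 without deficient dated. In it the ADP/ATP carrier Slc25a4 had 0.53 ± 0.17 (adjusted p = 0.271) and Coq2, an enzyme of coenzyme Q synthesis, had -0.88 ± 0.30 (adjusted p = 0.305). Cyc1 and Cycs, cytochromes c1 and c, had 0.56 ± 0.25 and -0.019 ± 0.17, and were named after their values were seen.

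Assembly factors had 28 positive and 21 negative differences among 49 and a median of 0.05, which was -0.07 with quantile normalization and -0.09 with median centring. Ndufaf2, a complex I assembly factor related to Ndufa12, had log2(TPM + 1) levels of 5.82, 5.08 and 4.61 in deficient libraries, against 3.95, 4.51 and 4.08 in sufficient libraries. The groups did not overlap, and its difference was 0.99 ± 0.32 (adjusted p = 0.286). Cox17, the copper chaperone of complex IV, had levels of 9.30, 9.14 and 9.59 in deficient libraries, against 9.68, 9.85 and 9.94 in sufficient libraries. Here deficient libraries were below sufficient ones, by -0.48 ± 0.16 (adjusted p = 0.286). Regulators of mitochondrial biogenesis had 8 positive and 8 negative differences among 16 tested of 18 listed, with a median of 0.04 that was -0.09 with median centring. Gabpa, a subunit of GABP, had 0.47 ± 0.25 and the mitochondrial DNA polymerase gene Polg had -0.48 ± 0.25, each with an adjusted p of 0.504. Among 7 tested of 10 genes tied to low oxygen, 4 differences were positive and 3 negative, against 2 and 5 with median centring. Pdk1, which restrains pyruvate dehydrogenase, had 0.53 ± 0.23 (adjusted p = 0.434) and the iron-sulfur assembly gene Isca1 had 0.22 ± 0.16 (adjusted p = 0.617).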

How the data were processed

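Sorted cells went straight into lysis buffer, and a Nextera XT kit and paired reads of 75 bases were used, per the labels' protocols. The submitters' processing notes name STAR, RSEM and limma, with no versions, and 2 names of the mouse build, GRCm38 and mm10. The deposited values are log2(TPM + 1): back on the linear scale, each column totals 999999 to 1000001. No label says that strand was kept, so reads of genes that overlap on opposite strands cannot be told apart.

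All 55450 gene identifiers matched GENCODE mouse release 21, whose coordinates and transcript lengths were used. Genes with a log2 value of at least 1 in at least 3 of 6 libraries were tested (12155). Groups were compared with limma 3.58.1 in R 4.3.3 (lmFit, then eBayes with a trend), deficient minus sufficient, two-sided, with no covariate and Benjamini-Hochberg adjustment over all tested genes. The pseudocount of 1 is in the deposited values, so log2 differences understate the change of low genes. Member sums used TPM back-calculated from the log2 values. The script was tested on simulated data. Tables and figures used Python 3.11.15 with matplotlib 3.10.9, pandas 2.3.3 and scipy 1.17.1.

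The members and the gene lists were chosen with earlier results of these data known. The genes named were those past the threshold, the 3 of smallest p and the most abundant of each complex, the isoform sets, the 4 Sdh genes, and the 2 of smallest p of each other list. Others are marked as named after their values were seen. 1 tested member is counted in the sums and medians but is not reported here by name. Column names mark a library as KO or WT, which was read as Tim-3 deficient or sufficient, but do not give its replicate number. Alternatives covered the filter, the pseudocount, normalization, the variance model, the threshold, the date mark and leaving out each library.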

Additional observations from a re-analysis of the deposited data

How the results depend on the processing

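The count of members past the threshold of 0.05 was 0 under every alternative run that gave p-values. The dated pair alone, 1 library against 1, gave none. Runs that called 0 of all genes could not have called a member. In the fit of all 6 libraries without the block, a threshold of 0.10 also gave 0 members. The smallest adjusted p of a member in limma was under 0.10 in other runs. It was 0.0767 with the date block, 0.0656 in undated libraries and 0.0691 without deficient dated. The count over all genes was 25 and less stable: 1 with no filter on low values, 4 with no variance trend, 240 with the date mark as a block, 215 in undated libraries, 90 at a threshold of 0.10, and 0 to 121 leaving out 1 library (11 without deficient C1, 0 without deficient D, 121 without deficient dated, 2 without sufficient A1, 0 without sufficient B1 and 24 without sufficient dated). It was 0 without deficient C1 and sufficient B1, an alternative chosen after seeing the data. The 25 split into 16 higher and 9 lower, against 11 and 19 with median centring and 15 and 21 with quantile normalization. Median centring moves the median of all genes to -0.04, against 0.09, and gave complex medians of -0.12 (I), -0.14 (III), -0.23 (IV) and -0.10 (V), while the dated pair alone gave -0.10 for complex I and -0.059 for complex V. Leaving out 1 library gave medians of -0.06 to 0.08 for complex I, 0.13 to 0.33 for II, -0.09 to 0.05 for III, -0.18 to -0.02 for IV and -0.0039 to 0.11 for V.

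Of the log2 differences of named genes, 745 of those recomputed under alternatives kept their sign and side of the threshold, 26 turned sign and 5 newly passed. Runs that changed only the filter, the threshold, the variance model or the date block left each difference they held as it was. No sign could turn in those runs, so the count that kept their sign is in part fixed in advance. With all libraries, the genes that turned had differences between -0.11 and 0.09, except Cox6b2 (-0.47) and Atp5g1 (0.28). With quantile normalization they were 0.056 for Ndufa4, 0.0039 for Cox4i1, 0.020 for Cox7a2, 0.061 for Cox6b1 and 0.065 for Cox8a, and with median centring -0.050 for Cox6a1. In undated libraries they were 0.038 for Sdhb and 0.044 for Cox8a, and in the dated pair 0.11 for Ndufa1, 0.56 for Cox6b2 and -0.059 for Atp5g1. Without deficient C1 and sufficient B1 they were 0.048 for the log2 difference of Ndufa1 and 0.046 for Ndufa4. Leaving out 1 library gave -0.29 to 0.034 for Ndufa1, -0.15 to 0.094 for Ndufa4, -0.10 to 0.052 for Sdhb, -1.01 to 0.014 for Cox6b2, -0.16 to 0.029 for Cox4i1, -0.11 to 0.013 for Cox6b1, -0.13 to 0.073 for Cox8a and -0.0033 to 0.51 for Atp5g1. The causes of these turns were not tested. No paired analysis was possible because the column names carry no replicate numbers. Depth is unknown, so no counting interval or detection limit could be given.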
